A study of Mus musculus with 16 samples.

Results

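The 9 genes described here encode the proteins that copy, write and remove methyl groups on cytosines of DNA: Dnmt1, Uhrf1, Dnmt3a, Dnmt3b, Dnmt3l, Tet1, Tet2, Tet3 and Tdg. They were chosen by symbol, by a rule that used no measured values, though with earlier results of these data known. They are 9 of the 27179 genes in the deposited count table. Their RNA was measured in 16 libraries of mouse embryonic stem (ES) cells, in 8 groups of 2 libraries. The cells grew on gelatin without a named line or genotype in the sources used here. They came from serum/LIF culture and were adapted for 3 passages to either 2i/LIF or serum/LIF+2i, then used for at most 9 passages. Both media held LIF, a cytokine that sustains ES cells, and 2i, which is 3 uM CHIR99021 (an inhibitor of GSK3) with 1 uM PD0325901 (an inhibitor of MEK). The 2i/LIF medium was serum-free, with N-2 and B-27 supplements, and the serum/LIF+2i medium held 10% fetal bovine serum. Cells were collected in the maintenance medium (0 h) or 12, 24 and 40 h after transfer to serum-free medium without 2i or LIF, which starts the exit from naive pluripotency. The exit medium differed as well: 2i/LIF cells kept the base of their maintenance medium, and serum/LIF+2i cells were moved to a mix of glutamine-free DMEM and Neurobasal with 2 mM glutamine added. Maintenance medium and exit medium therefore cannot be told apart after 0 h. Nothing in the labels says that replicates were separate cultures, so the p-values measure only the spread between these libraries, which may be technical.

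In mammals, methylation of CG dinucleotides is copied after DNA replication by DNMT1, which UHRF1 recruits to hemimethylated sites. New methylation is set by DNMT3A and DNMT3B, and DNMT3L, which has no catalytic activity of its own, binds and stimulates both. TET1, TET2 and TET3 oxidize methylcytosine, and TDG cuts out the most oxidized forms so that base excision repair can restore cytosine. ES cells held in 2i are known for low genome-wide methylation, and the epiblast gains methylation as it leaves the naive state. Only RNA was measured here, so protein, enzyme activity and DNA methylation are outside these data.

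The genes lie on 7 chromosomes in the mm10 (GRCm38) build, by the GENCODE vM21 annotation. Dnmt1 spans chr9:20907209-20959888 on the minus strand, Uhrf1 chr17:56303321-56323486 on the plus strand, and Tdg chr10:82629828-82650799 on the plus strand. Dnmt3a spans chr12:3806007-3914443, Dnmt3b chr2:153649450-153687730 and Dnmt3l chr10:78041947-78063622, all on the plus strand. Tet1 spans chr10:62804570-62908996, Tet2 chr3:133463679-133545139 and Tet3 chr6:83362373-83459084, all on the minus strand. Dnmt3l overlaps the start of Aire (chr10:78030022-78043610, minus strand), with 67 exonic bases in common. Whether the authors counted reads by strand is not given in the sources used here, so reads in the shared bases could be placed with either gene.

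CG dinucleotides are what these enzymes act on. The stretches before start sites of Dnmt3a, Dnmt3b, Dnmt3l and Tet2 are therefore shown with each CG in capitals. They are the 250 bases before a RefSeq start (GRCm38.p6), on the gene's own strand. All 9 genes matched RefSeq entries, and the 5 windows shown hold no base of an annotated UTR.
Dnmt3a, chr12:3806730-3806979, plus strand: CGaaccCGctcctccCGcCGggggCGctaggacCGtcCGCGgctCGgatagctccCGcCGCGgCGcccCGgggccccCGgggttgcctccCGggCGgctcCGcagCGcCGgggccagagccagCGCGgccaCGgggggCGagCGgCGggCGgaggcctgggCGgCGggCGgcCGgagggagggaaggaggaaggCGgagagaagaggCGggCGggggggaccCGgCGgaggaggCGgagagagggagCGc
Dnmt3b, chr2:153649199-153649448, plus strand: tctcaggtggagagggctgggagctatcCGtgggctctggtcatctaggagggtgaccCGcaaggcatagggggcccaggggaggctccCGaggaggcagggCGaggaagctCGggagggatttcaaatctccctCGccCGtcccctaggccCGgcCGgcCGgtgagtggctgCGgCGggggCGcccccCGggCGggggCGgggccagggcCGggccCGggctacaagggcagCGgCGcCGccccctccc
Dnmt3l, chr10:78049592-78049841, plus strand: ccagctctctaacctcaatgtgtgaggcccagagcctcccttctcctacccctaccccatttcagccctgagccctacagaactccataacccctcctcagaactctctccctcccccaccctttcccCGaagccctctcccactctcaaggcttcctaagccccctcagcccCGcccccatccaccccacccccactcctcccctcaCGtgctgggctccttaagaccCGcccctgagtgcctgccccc
Dnmt3l, chr10:78055085-78055334, plus strand: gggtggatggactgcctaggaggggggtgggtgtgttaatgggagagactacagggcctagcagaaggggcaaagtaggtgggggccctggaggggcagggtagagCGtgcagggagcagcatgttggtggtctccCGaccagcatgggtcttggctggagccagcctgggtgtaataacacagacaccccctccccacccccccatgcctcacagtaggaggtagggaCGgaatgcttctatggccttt
Tet2, chr3:133544391-133544640, minus strand: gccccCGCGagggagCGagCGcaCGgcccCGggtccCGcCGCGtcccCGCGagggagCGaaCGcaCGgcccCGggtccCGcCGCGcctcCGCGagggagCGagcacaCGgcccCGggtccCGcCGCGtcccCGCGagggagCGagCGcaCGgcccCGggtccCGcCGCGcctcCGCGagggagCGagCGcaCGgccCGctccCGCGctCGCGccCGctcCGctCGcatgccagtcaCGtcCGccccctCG
The Dnmt3a window shown holds 38 CG, the Dnmt3b window 21 and the Tet2 window 51. The Dnmt3l windows, both inside the annotated gene, hold 4 and 3. Over the 32851 RefSeq windows of the same length, the median was 6 CG and the quartiles were 2 and 16, so the Dnmt3l windows lie below the median and the other 3 shown above the upper quartile. Dnmt3a has 2 further windows, which include UTR bases and are not shown, with 40 CG (chr12:3806910-3807159) and 15 CG (chr12:3891494-3891743), the latter below the upper quartile. The remaining Dnmt3l window, chr10:78042037-78042286, holds 5 CG and overlaps an Aire exon. The Tet3 window, chr6:83441679-83441928, holds 17 CG and is not shown either, although Tet3 changed about as much as Tet2 by 40 h. Counts per gene do not show which start was used.

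Library totals ran from 5931381 to 11142744 counts, and replicates correlated at 0.9905 to 0.9948 (Pearson's r of log2 CPM across genes, which are not independent replicates). The state of the cells followed their labels: 4 pluripotency markers (Pou5f1, Sox2, Sall4 and Utf1) were detected in every group, with a summed level of 1320 to 2300 CPM. CPM is the count scaled to a common library total. Within that sum the genes moved apart between 0 and 40 h. Utf1 rose from 20 to 400 CPM in 2i/LIF cells and from 45.9 to 366 in serum/LIF+2i cells. Sox2 fell from 358 to 142 and from 403 to 144 CPM, and Sall4 from 329 to 234 and from 327 to 244. Pou5f1 went from 641 to 635 and from 707 to 676 CPM. The naive markers Nanog, Zfp42, Esrrb and Klf4 together went from 2210 to 2270 CPM at 0 h to 113 to 117 CPM at 40 h in 2i/LIF cells, and from 2550 to 2580 CPM to 78.1 to 78.3 CPM in the serum/LIF+2i cells. The formative markers Fgf5, Otx2 and Pou3f1 together went from 1.90 to 2.28 CPM to 286 to 338 CPM in 2i/LIF cells. In serum/LIF+2i cells they went from 3.09 to 3.97 CPM (Fgf5 at 0) to 154 to 176 CPM, mostly Pou3f1 (151 CPM). Between 24 and 40 h Otx2 fell there from 92.7 to 10.3 CPM and Fgf5 from 6.24 to 3.17 CPM. Otx2 also fell in 2i/LIF cells, from 81.4 to 62.4 CPM. Summed markers of other cells stayed low but were not constant: fibroblasts or feeders (6 genes; Dcn or Lum at 0 in 7 groups, with Col1a2 also at 0 in 2i/LIF cells at 24 h) ran from 4.41 to 23.5 CPM and primitive endoderm (6 genes; Sox7 at 0 in 1 group and Foxa2 in 2) from 2.34 to 7.35 CPM. Trophoblast markers (5 genes, with Elf5 or Hand1 at 0 in 7 groups) went from 62.3 to 80 CPM at 0 h to 3.34 to 8.22 CPM later. The 0 h sum was mostly Tfap2c (62.8 CPM in 2i/LIF cells and 55.4 in serum/LIF+2i cells), followed by Cdx2 (11.1 and 7.93 CPM). The 2-cell-like markers (4 genes, with Zscan4c and Zfp352 at 0 in 1 group each) ran from 0.587 to 34.6 CPM. The part of such other cells in the results was not tested. In such bulk samples fewer cells of a kind and less RNA per cell cannot be told apart.

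All 9 genes passed the filter on low counts and were among the 14288 genes tested with edgeR's quasi-likelihood test, with Benjamini-Hochberg adjustment over all of them. A gene is called at an adjusted p under 0.05. In cells released from 2i/LIF, 5 of the 9 were called at 12 h (4 higher, 1 lower), against 44.7% of all genes tested. At 24 h all 9 were called (6 higher, 3 lower), against 58.8%, and at 40 h 8 were (5 higher, 3 lower), against 68.8%. In cells released from serum/LIF+2i, 6 were called at 12 h, all higher, against 51.2% of all genes. There, 8 were called at 24 h (6 higher, 2 lower), against 64.4%, and 8 at 40 h (5 higher, 3 lower), against 70.5%. The 6 comparisons share the 0 h libraries of their medium. At 24 and 40 h most genes of these cells were called, so the count of enzymes says little there. At 40 h the median absolute log2 fold change of the 9 was 1.6 in 2i/LIF cells and 1.7 in serum/LIF+2i cells, beside 0.53 and 0.5 over all genes tested.

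**Figure D1:**
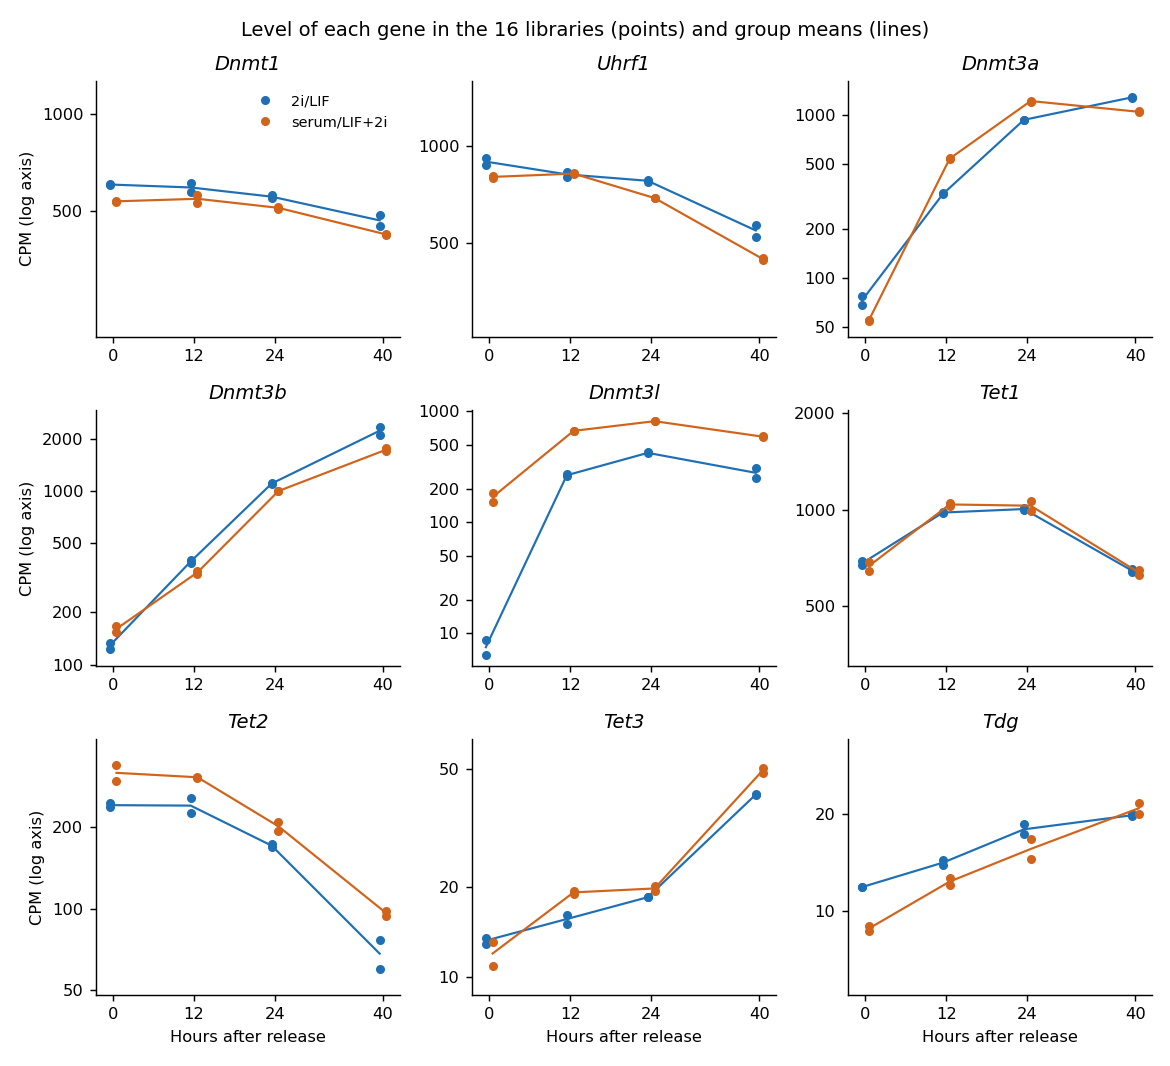
Level of each of the 9 genes in CPM (log axis, a different range in each panel) against hours after release. Points are the 16 libraries, lines join the means of 2 libraries, blue is 2i/LIF and orange serum/LIF+2i. Dnmt3a, Dnmt3b and Dnmt3l rose in both media, Tet2, Uhrf1 and Dnmt1 fell by 40 h, and Tet1 was higher at 12 and 24 h than at 0 or 40 h.

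The maintenance pair fell slowly. Dnmt1, which copies methylation, stood at 605 ± 0.629 CPM (SD, n = 2) at 0 h in 2i/LIF cells and 468 ± 27.9 CPM at 40 h. The serum/LIF+2i cells had 536 ± 1.32 CPM at 0 h and 423 ± 1.35 CPM at 40 h. The groups did not overlap in either medium, and the log2 fold changes at 40 h were -0.37 ± 0.04 (SE, adjusted p = 3.5e-16) and -0.34 ± 0.04 (adjusted p = 8.4e-15). At 12 h Dnmt1 was not called in either medium, with log2 fold changes of -0.03 and 0.03. At 24 h it was called in 2i/LIF cells alone (log2 fold change -0.13 ± 0.04, adjusted p = 0.0026), a call that was lost without the first 24 h library (adjusted p = 0.052). The 24 h change in serum/LIF+2i cells was -0.07 ± 0.04 (adjusted p = 0.1), and the difference between these changes, the interaction at 24 h of 0.06 ± 0.05, was not called (adjusted p = 0.49).

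Uhrf1, the factor that brings DNMT1 to newly copied DNA, fell further. In 2i/LIF it read 871 and 919 CPM at 0 h, 803 and 831 at 12 h, 776 and 784 at 24 h, and 569.6 and 523 at 40 h. The serum/LIF+2i libraries read 809 and 795 CPM at 0 h, 818 and 825 at 12 h, 688.5 and 690.4 at 24 h, and 443 and 449 at 40 h. The 40 h libraries were the lowest of each medium, and no 40 h library overlapped an earlier one. The log2 fold change at 40 h was -0.71 ± 0.04 in 2i/LIF cells (1.64-fold lower, adjusted p = 2.1e-37) and -0.85 ± 0.04 in serum/LIF+2i cells (1.80-fold lower, adjusted p = 1.6e-44). Most of that fall came in the last interval, with -0.51 ± 0.04 and -0.63 ± 0.04 between 24 and 40 h. At 12 h Uhrf1 was called in 2i/LIF cells (-0.13 ± 0.04, adjusted p = 0.0012), but not without the second 0 h library (-0.07, adjusted p = 0.18), and in serum/LIF+2i cells it was not called (0.03 ± 0.04, adjusted p = 0.44). Its paralog Uhrf2 is counted under its own symbol, and the Uhrf1 values do not include it.

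Both de novo enzymes rose after release. Dnmt3a read 76.9 and 68.5 CPM at 0 h in 2i/LIF cells, 329.5 and 325 at 12 h, 930.2 and 935 at 24 h, and 1291 and 1271 at 40 h. From serum/LIF+2i it read 54.8 and 54.5 CPM at 0 h, 544 and 535 at 12 h, 1225 and 1208 at 24 h, and 1053 and 1037 at 40 h. No group overlapped another of the same medium, and the highest group was 40 h in 2i/LIF cells but 24 h in serum/LIF+2i cells. The log2 fold changes against 0 h at 12, 24 and 40 h were 2.17 ± 0.05, 3.68 ± 0.05 and 4.14 ± 0.04 in 2i/LIF cells (adjusted p from 1.9e-107 to 1.9e-73). The same changes in serum/LIF+2i cells were 3.30 ± 0.05, 4.48 ± 0.05 and 4.26 ± 0.05 (adjusted p from 1.4e-109 to 1.5e-93). Between 24 and 40 h Dnmt3a still rose in 2i/LIF cells (0.46 ± 0.03, adjusted p = 1.7e-23) and fell in serum/LIF+2i cells (-0.22 ± 0.03, adjusted p = 2e-08).

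Dnmt3b, the other de novo enzyme, rose through all 4 times in both media. It read 134 and 123 CPM at 0 h in 2i/LIF cells, 398.5 and 386 at 12 h, 1106 and 1100 at 24 h, and 2335 and 2108 at 40 h. From serum/LIF+2i the readings were 167 and 154 CPM at 0 h, 334 and 345 at 12 h, 999.6 and 998 at 24 h, and 1771 and 1689 at 40 h. Each time stood clear of the ones before it. The log2 fold changes were 1.61 ± 0.05, 3.10 ± 0.04 and 4.11 ± 0.04 in 2i/LIF cells, and 1.08 ± 0.04, 2.63 ± 0.04 and 3.43 ± 0.04 in serum/LIF+2i cells (adjusted p from 1.2e-84 to 4.3e-39). At 40 h that was 17.3-fold and 10.8-fold. The increments per interval in 2i/LIF cells were 1.49 ± 0.04 between 12 and 24 h and 1.01 ± 0.04 between 24 and 40 h, and in serum/LIF+2i cells 1.55 ± 0.04 and 0.79 ± 0.04.

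Corrected for gene length, as TPM (length-corrected counts scaled to the same sum in each library), Dnmt3b was the more abundant of the pair in every library, but the ratio moved. In 2i/LIF there were 3.98 and 4.10 Dnmt3b transcripts per Dnmt3a transcript at 0 h, 2.76 and 2.71 at 12 h, 2.71 and 2.68 at 24 h, and 4.12 and 3.78 at 40 h. The ratios in serum/LIF+2i cells were 6.95 and 6.46, then 1.40 and 1.47, then 1.86 and 1.88, then 3.83 and 3.71. The lowest ratio of all was thus at 12 h in serum/LIF+2i cells, after the highest at 0 h in the same medium. At 12 and 24 h in serum/LIF+2i cells the order of the pair rests on the deposited gene lengths. By CPM, Dnmt3a was the higher there, at 539 against 340 at 12 h and 1216 against 999 at 24 h. In all other groups Dnmt3b was also higher by CPM. Counts per gene do not show which Dnmt3a start was used, so the length of its transcripts is uncertain. Set against the maintenance enzyme, Dnmt3a and Dnmt3b together stood at 0.405 and 0.369 transcripts per Dnmt1 transcript at 0 h in 2i/LIF cells and 8.68 and 8.67 at 40 h. The ratio in serum/LIF+2i cells went from 0.521 and 0.484 to 7.72 and 7.38. Both media thus went from more Dnmt1 than de novo enzyme RNA to several times less.

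**Figure D2:**
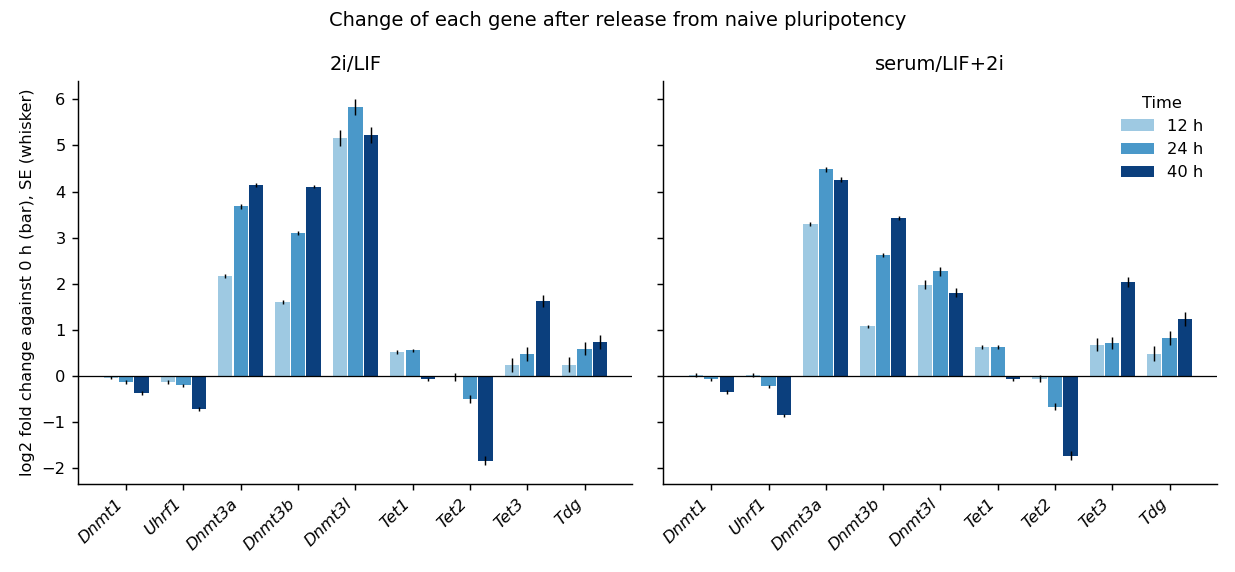
log2 fold change of each gene against 0 h of its medium (bars, edgeR) with its standard error (whiskers), at 12, 24 and 40 h after release from 2i/LIF (left) and serum/LIF+2i (right). In 2i/LIF the bars of Dnmt3l are the tallest (5.16, 5.83 and 5.23), and in serum/LIF+2i cells those of Dnmt3a are (3.30, 4.48 and 4.26).

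Dnmt3l, the cofactor of both de novo enzymes, was the gene of the 9 that differed most between the media. At 0 h in 2i/LIF cells it read 8.62 and 6.38 CPM, from 50 and 42 counts. It then read 271 and 259.9 CPM at 12 h, 419 and 426 at 24 h, and 251 and 307 at 40 h. At 0 h in serum/LIF+2i cells it already read 184 and 153 CPM, and then 667 and 667 at 12 h, 810.1 and 820.4 at 24 h, and 587 and 596 at 40 h. The 24 h libraries were the highest of each medium, and at each time both serum/LIF+2i libraries lay above both 2i/LIF libraries. The rise over 0 h in 2i/LIF cells at 12, 24 and 40 h was 5.16 ± 0.18, 5.83 ± 0.17 and 5.23 ± 0.18 on the log2 scale (adjusted p from 1.6e-09 to 1.1e-08), or 35.7-fold, 56.7-fold and 37.4-fold. The rise in serum/LIF+2i cells was 1.98 ± 0.10, 2.27 ± 0.10 and 1.81 ± 0.10 (adjusted p from 2.2e-08 to 1.1e-07), or 3.95-fold, 4.83-fold and 3.50-fold. From 24 to 40 h Dnmt3l fell in both media, by 0.60 ± 0.09 and 0.46 ± 0.08. The step from 12 to 24 h in serum/LIF+2i cells (0.29 ± 0.08, adjusted p = 0.019) was not called when any 1 of its 4 libraries was left out (adjusted p from 0.052 to 0.07).

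Because Aire, a transcription regulator best known from the thymus, overlaps Dnmt3l, its counts are given beside it. Aire held 9 counts in both 2i/LIF libraries at 0 h together (6 and 3), 77 and 106 at 12 h, 179 and 171 at 24 h, and 83 and 77 at 40 h. The serum/LIF+2i libraries held 101 and 71 at 0 h, 234 and 246 at 24 h, and 80.0 and 56 at 40 h. At 12 h in serum/LIF+2i cells Aire stood at 24.2 ± 3.43 CPM. Aire counts were 12 and 7.14% of Dnmt3l counts at 0 h in 2i/LIF cells and 4.14 and 3.41% at 40 h. In serum/LIF+2i the share went from 8.05 and 6.8% at 0 h to 1.17 and 0.91% at 40 h. Both genes shared the medium difference at 0 h: Aire was higher in serum/LIF+2i cells by 4.09 ± 0.34 (log2, adjusted p = 8.2e-20) and Dnmt3l by 4.50 ± 0.20. Later they parted: at 24 h the medium difference of Aire was 0.00 ± 0.12 (adjusted p = 0.99) beside 0.95 ± 0.09 for Dnmt3l, and at 40 h it was -0.75 ± 0.18 (adjusted p = 0.00073) beside 1.08 ± 0.09. At 40 h in serum/LIF+2i cells Aire was also lower than at 0 h (-1.03 ± 0.18, adjusted p = 2.7e-07) while Dnmt3l was higher. Adding the counts of the 2 genes changed no call of Dnmt3l in the 17 comparisons.

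The next counted gene on the other side, Icosl, starts 5680 bases past the end of Dnmt3l on the same strand and encodes a ligand of the T cell receptor ICOS. Its level went from 2.11 ± 0.188 CPM at 0 h in 2i/LIF cells to 23.8 ± 0.226 at 12 h, 32.6 ± 2.53 at 24 h and 20.8 ± 4.42 at 40 h. Icosl in serum/LIF+2i cells went from 14.5 ± 4.37 CPM to 46.2 ± 0.776, 45.9 ± 1.99 and 39.1 ± 0.219. As with Dnmt3l, Icosl was higher in serum/LIF+2i cells at 0 h (2.78 ± 0.26, adjusted p = 4.8e-17) and rose more in 2i/LIF cells (3.49 ± 0.22 against 1.67 ± 0.12 at 12 h). Pfkl, a glycolytic enzyme gene that lies 31864 bases before Dnmt3l, had another course at 12 h. Its log2 fold change was then 0.00 ± 0.06 in 2i/LIF cells and -0.61 ± 0.05 in serum/LIF+2i cells. Pfkl too was higher in serum/LIF+2i cells at 0 h (0.98 ± 0.05, adjusted p = 6.3e-32). By 40 h it had risen more in 2i/LIF cells (1.7 ± 0.05 against 0.52 ± 0.04). Trpm2, a cation channel gene further away, held 18 counts over all libraries and was not tested.

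**Figure D3:**
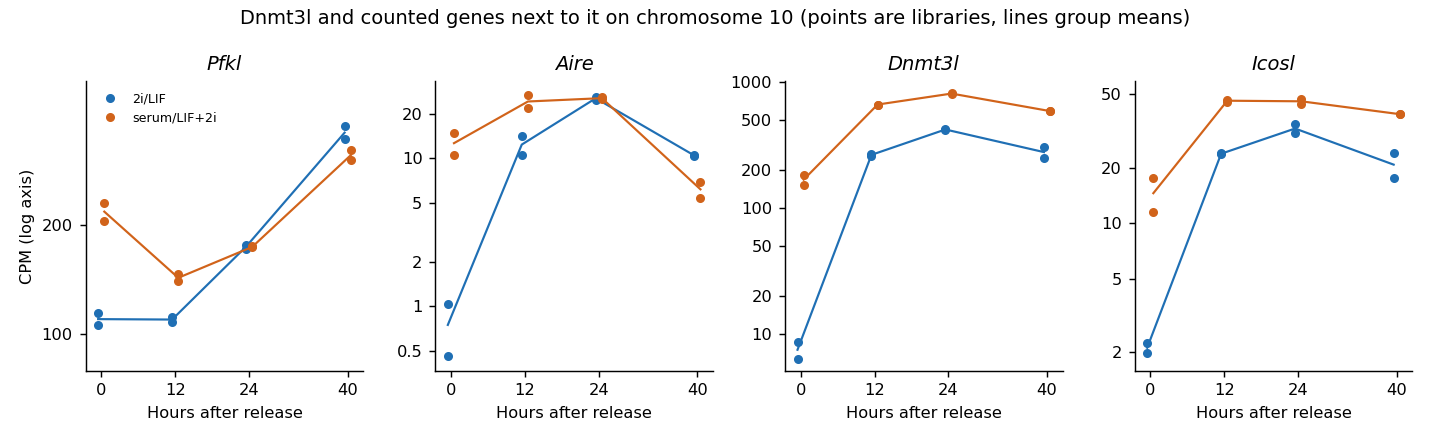
Level in CPM (log axis) against hours after release for Dnmt3l and the counted genes next to it: Pfkl, Aire and Icosl. Points are libraries, lines join the means of 2 libraries, blue is 2i/LIF and orange serum/LIF+2i. Each gene shown starts lower in 2i/LIF cells. Aire, Dnmt3l and Icosl rise by 12 h, and Pfkl does not rise by 12 h in either medium.

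These changes altered the make-up of the Dnmt3 family. At 0 h in 2i/LIF cells the 3 genes summed to 91.6 ± 8.82 TPM, of which Dnmt3b made up 72.4 ± 1.36%, Dnmt3a 17.9 ± 0.0649% and Dnmt3l 9.62 ± 1.29%. At 0 h in serum/LIF+2i cells they summed to 294 ± 25.8 TPM, of which Dnmt3l made up 67.6 ± 1.76%. Dnmt3l peaked as a share at 12 h, with 53.2 ± 0.294% in 2i/LIF cells and 72.6 ± 0.169% in serum/LIF+2i cells. By TPM it was then the most abundant of the 3 in both. These shares rest on the deposited gene lengths. By CPM at 12 h in 2i/LIF cells Dnmt3l was the lowest of the 3, at 266 beside 327 for Dnmt3a and 392 for Dnmt3b. In serum/LIF+2i cells it was the highest by CPM as well, at 667 beside 539 and 340. By 40 h the family summed to 1840 ± 22 TPM in 2i/LIF cells and 2010 ± 27.4 TPM in serum/LIF+2i cells. Dnmt3b then held the largest share, at 64.8 ± 3.25% and 48.8 ± 0.953%, and Dnmt3l had come down to 18.7 ± 3.06% and 38.3 ± 0.915%.

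**Figure D4:**
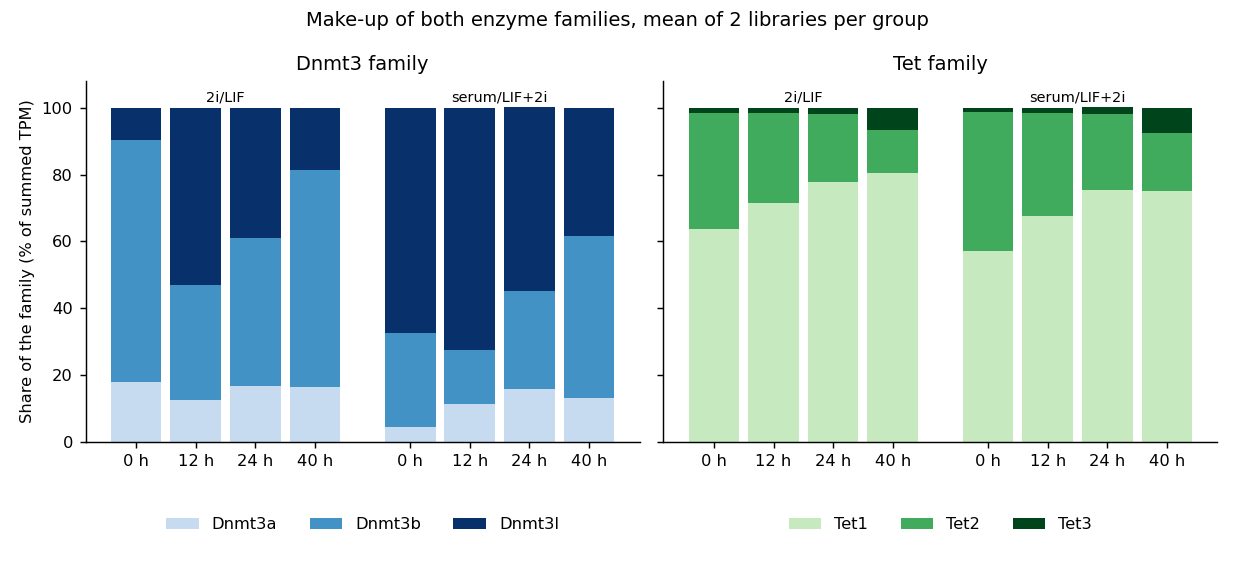
Share of each gene in the summed TPM of its family (percent, mean of 2 libraries), for Dnmt3a, Dnmt3b and Dnmt3l (left) and Tet1, Tet2 and Tet3 (right), by medium and time. The Dnmt3l share is 9.62% at 0 h in 2i/LIF cells and 67.6% in serum/LIF+2i cells, and the Tet2 share falls from 34.7% and 41.6% at 0 h to 13% and 17.4% at 40 h.

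Ranked by TPM over all 9 genes, Uhrf1 led at 0 h in both media (545 ± 10.7 and 489 ± 1.90 TPM) and Dnmt3b at 40 h (1200 ± 74.1 and 981 ± 32.5 TPM). Next to Uhrf1 at 0 h came Dnmt1 in 2i/LIF cells (214 ± 3.76 TPM) and Dnmt3l in serum/LIF+2i cells (199 ± 22.6 TPM), which overlapped Dnmt1 there (190 ± 3.51 TPM). Tet3 was last by TPM in all 8 groups, with 2.45 ± 0.357 TPM at its lowest and 11.1 ± 0.315 TPM at its highest. These ranks rest on the deposited gene lengths. By CPM, Tet3 was above Tdg in every group, at 13.2 against 11.9 at 0 h in 2i/LIF cells and 49.2 against 20.9 at 40 h in serum/LIF+2i cells. Dnmt3l was the lowest by CPM at 0 h in 2i/LIF cells (7.50). Tet1 was above Dnmt1 by CPM at 0 h in both media (679.8 against 605.2, and 666.3 against 536.5). Neighbours in the order whose libraries overlapped were Dnmt3l with Tdg at 0 h, Dnmt1 with Dnmt3b at 12 h and Uhrf1 with Dnmt3l at 40 h in 2i/LIF cells. In serum/LIF+2i they were Dnmt3l with Dnmt1 and Dnmt3b with Tet2, both at 0 h. All other neighbours were apart in both libraries.

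The 3 TET genes took 3 different courses. Tet1, the main TET gene of naive ES cells, rose and came back: its level was 679.8 ± 13.0 CPM at 0 h in 2i/LIF cells, 978 ± 4.21 at 12 h, 1003 ± 13.4 at 24 h and 646 ± 9.73 at 40 h. Tet1 levels in serum/LIF+2i cells were 666 ± 30.9, 1037 ± 11.4, 1028 ± 52.7 and 637 ± 16.9 CPM. The rise was called at 12 h (log2 fold change 0.53 ± 0.04 and 0.64 ± 0.04) and at 24 h (0.56 ± 0.04 and 0.63 ± 0.04). At 40 h Tet1 was not called against 0 h, at -0.07 in both media (95% intervals from the standard error -0.15 to 0.00 and -0.14 to 0.00; adjusted p = 0.062 and 0.096), although the value in serum/LIF+2i cells was called without the second 0 h library (-0.11, adjusted p = 0.013). The 40 h libraries lay below those at 0 h in 2i/LIF cells and overlapped them in serum/LIF+2i cells. The fall between 24 and 40 h was called in both, at -0.64 ± 0.04 and -0.69 ± 0.04.

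Tet2 fell. It read 245 and 237 CPM at 0 h in 2i/LIF cells, 256 and 225 at 12 h, 173 and 168 at 24 h, and 60.1 and 76.4 at 40 h. From serum/LIF+2i it read 338 and 297 CPM at 0 h, 304 and 307 at 12 h, 209 and 194 at 24 h, and 94.1 and 98.2 at 40 h. The 12 h libraries overlapped those at 0 h in both media, and the 24 and 40 h libraries were lower than both. The change was not called at 12 h (-0.01 ± 0.09 and -0.05 ± 0.08) and then was -0.50 ± 0.09 and -0.66 ± 0.08 at 24 h (adjusted p = 0.00061 and 2.3e-05). At 40 h it was -1.83 ± 0.10 and -1.72 ± 0.09 (3.54-fold and 3.30-fold lower, adjusted p = 9.3e-09 and 3.4e-09).

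Tet3, the TET gene best known from the oocyte and from neural cells, was scarce and rose late. In 2i/LIF it read 12.9 and 13.5 CPM at 0 h, 15.1 and 16.2 at 12 h, 18.5 and 18.5 at 24 h, and 40.95 and 40.9 at 40 h. The readings from serum/LIF+2i cells were 10.9 and 13.1 CPM, then 18.9 and 19.5, then 20.1 and 19.5, then 48.3 and 50.2. The 40 h libraries were above all others, from counts of 301 to 560.0 against 74 to 191 at the earlier times. Against 0 h, Tet3 rose by 1.63 ± 0.12 at 40 h in 2i/LIF cells (3.09-fold, adjusted p = 3.9e-24) and by 2.04 ± 0.11 in serum/LIF+2i cells (4.11-fold, adjusted p = 2.1e-34). At 12 h it was called in serum/LIF+2i cells (0.68 ± 0.14, adjusted p = 1.5e-05) and not in 2i/LIF cells (0.24 ± 0.15, adjusted p = 0.2), and the difference between these changes, 0.44 ± 0.21, was not called (adjusted p = 0.19).

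As a family, the TET genes summed to 169 ± 6.53 TPM at 0 h and 133 ± 5.93 TPM at 40 h in 2i/LIF cells, and to 185 ± 8.63 and 148 ± 4.06 TPM in serum/LIF+2i cells. Tet1 made up 63.7 ± 0.0621% and 57.1 ± 0.934% of it at 0 h, and 80.4 ± 1.52% and 75.1 ± 0.0585% at 40 h. Tet2 went from 34.7 ± 0.145% and 41.6 ± 1.19% to 13 ± 1.75% and 17.4 ± 0.0517%, and Tet3 reached 6.58 ± 0.23% and 7.5 ± 0.00684%. Per transcript of Dnmt3a and Dnmt3b together there were 1.98 and 2.10 TET transcripts at 0 h in 2i/LIF cells and 0.0829 and 0.0947 at 40 h. In serum/LIF+2i the ratio went from 1.96 and 1.92 to 0.114 and 0.124. By TPM, the balance between oxidizing and de novo methylating enzymes thus changed sides between 0 and 12 h in both media. At 12 h the ratio was already between 0.778 and 0.816. The time of that change rests on the deposited gene lengths. By CPM at 12 h, Tet1 alone stood at 978 in 2i/LIF cells, beside 327 for Dnmt3a and 392 for Dnmt3b. The same values in serum/LIF+2i cells were 1037, 539 and 340.

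Tdg, the glycosylase at the end of active demethylation, was low and rose slowly. Its counts were 69 and 78 at 0 h in 2i/LIF cells and 160.0 and 145 at 40 h, and 59 and 61 in serum/LIF+2i cells against 233 and 224. In CPM these are 11.9 ± 0.0305 and 19.9 ± 0.238 in 2i/LIF cells, and 8.81 ± 0.206 and 20.9 ± 1.13 in serum/LIF+2i cells. The 0 and 40 h groups did not overlap in either medium. The log2 fold change at 40 h was 0.74 ± 0.15 (adjusted p = 5e-06) and 1.24 ± 0.15 (adjusted p = 2.8e-13). The 12 h rise was called in serum/LIF+2i cells (0.49 ± 0.17, adjusted p = 0.011), though not without the first 0 h or the second 12 h library (adjusted p = 0.058 and 0.068). A pseudogene listed as Tdg-ps had 138 counts beside 1989 for Tdg over all libraries, and Glt8d2, on the opposite strand with 367 exonic bases in common, had 41. Tdg counts are uncertain for that reason, and counts per gene do not show by how much.

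Between successive times, 6 of the 9 genes were called from 12 to 24 h in 2i/LIF cells (4 higher, 2 lower), against 35.1% of all genes tested, and 8 from 24 to 40 h (3 higher, 5 lower), against 46.7%. In serum/LIF+2i, 7 were called from 12 to 24 h (4 higher, 3 lower), against 48.4%, and all 9 from 24 to 40 h (3 higher, 6 lower), against 50.5%. The 7 calls became 4 without the second library at either 12 or 24 h. The last interval held the falls of Dnmt1, Uhrf1, Dnmt3l, Tet1 and Tet2 in both media and the rises of Dnmt3b and Tet3. The 12 to 24 h steps of Dnmt1 (-0.10 ± 0.04 and -0.09 ± 0.04) and of Tdg (0.35 ± 0.14 and 0.34 ± 0.14) were lost under DESeq2's Wald test (adjusted p from 0.099 to 0.19) and when most single libraries were left out.

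The media were compared directly at each time. At 0 h, 6 of the 9 genes differed (3 higher and 3 lower in serum/LIF+2i cells), against 33% of all genes tested, and at 12 h 5 did (3 higher, 2 lower), against 30.3%. At 24 h 5 differed (2 higher, 3 lower), against 31.1%, and at 40 h 7 did (3 higher, 4 lower), against 27.3%. Those shares were smaller under DESeq2's Wald test, which called 3097, 2638, 2688 and 1982 genes at the 4 times in place of 4710, 4334, 4439 and 3897, and 6, 4, 4 and 6 of the 9. Without the first 2i/LIF library at 40 h, 2257 genes and 5 of the 9 were called at that time. Dnmt3l stood out at 0 h, being 22.7-fold higher in serum/LIF+2i cells (log2 difference 4.50 ± 0.20, adjusted p = 1.3e-07). That difference shrank to 1.33 ± 0.09 at 12 h, 0.95 ± 0.09 at 24 h and 1.08 ± 0.09 at 40 h, each of them called. The other called differences of the 9 genes were all at most 0.72 in size on the log2 scale.

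Dnmt3a changed its side: it was lower in serum/LIF+2i cells at 0 h (-0.41 ± 0.06, adjusted p = 1.9e-07), higher at 12 h (0.72 ± 0.04, adjusted p = 3.9e-35) and 24 h (0.38 ± 0.03, adjusted p = 3.9e-18), and lower again at 40 h (-0.29 ± 0.03, adjusted p = 2.2e-12). Dnmt3b went the other way at 0 h, being higher in serum/LIF+2i cells (0.32 ± 0.05, adjusted p = 5.1e-08), and was lower from 12 h on (-0.21 ± 0.04, -0.14 ± 0.04 and -0.36 ± 0.04). Tet2 was higher in serum/LIF+2i cells at 0 h (0.40 ± 0.09, adjusted p = 0.0038), 12 h (0.35 ± 0.08, adjusted p = 0.0076) and 40 h (0.50 ± 0.11, adjusted p = 0.0057). At 24 h its difference of 0.24 ± 0.09 was not called (adjusted p = 0.07) but was under 4 of the alternatives tried. Dnmt1 was lower in serum/LIF+2i cells at every time, by -0.12 to -0.17, and Uhrf1 at 0, 24 and 40 h, by -0.16, -0.18 and -0.29. The Dnmt1 differences at 12 and 24 h were lost under DESeq2's Wald test (adjusted p = 0.061 and 0.084), and the one at 40 h without the first 2i/LIF library (-0.09, adjusted p = 0.15). Tet1 and Tdg were not called at any time, with Tet1 differences of -0.03 to 0.08, and Tet3 was called at 40 h only (0.27 ± 0.08, adjusted p = 0.011; 0.16 by DESeq2).

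**Figure D5:**
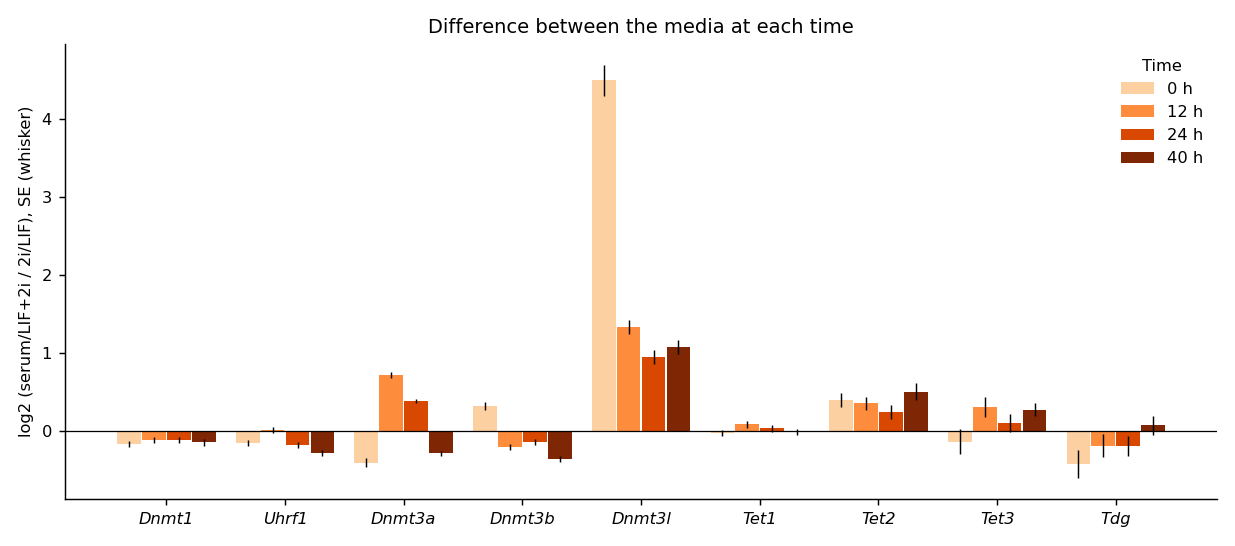
log2 difference of each gene between serum/LIF+2i and 2i/LIF (bars, edgeR; above 0 is higher in serum/LIF+2i cells) with its standard error (whiskers), at 0, 12, 24 and 40 h. The 0 h bar of Dnmt3l, 4.50, exceeds all the others, and the bars of Dnmt3a change sign with time.

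Whether the change after release itself differed between the media was tested with an interaction term, taken as the exit effect in serum/LIF+2i cells minus that in 2i/LIF cells. It was called for 4 of the 9 genes at 12 h (2 above 0, 2 below), against 9.2% of all genes tested, for 3 at 24 h (1 above, 2 below), against 20.8%, and for 3 at 40 h (all below), against 27.6%. DESeq2's Wald test called 536, 1720 and 2377 genes in place of 1315, 2966 and 3940, and 3, 3 and 2 of the 9. Dnmt3l differed most, at -3.17 ± 0.24, -3.55 ± 0.24 and -3.42 ± 0.24 (adjusted p = 4.4e-05, 5.5e-06 and 6.1e-06). Dnmt3a rose more in serum/LIF+2i cells at 12 h (1.13 ± 0.07, adjusted p = 6.4e-28) and 24 h (0.79 ± 0.07, adjusted p = 1e-18), and at 40 h the difference of 0.11 ± 0.07 was not called (95% interval -0.02 to 0.25, adjusted p = 0.26). Dnmt3b rose less in serum/LIF+2i cells at all 3 times, by -0.53 ± 0.06, -0.47 ± 0.06 and -0.68 ± 0.06 (adjusted p from 1.7e-16 to 1.7e-09). Uhrf1 was called at 12 h (0.17, adjusted p = 0.02) and 40 h (-0.14, adjusted p = 0.036), but under DESeq2's Wald test neither was (adjusted p = 0.073 and 0.13). Dnmt1, the TET genes and Tdg were not called at any time.

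Genes that work with these enzymes were taken as 5 lists, chosen with earlier results known, to be read against the share of all genes called given above. By direction, 34.1% of all genes tested were higher and 34.7% lower at 40 h in 2i/LIF cells. In serum/LIF+2i cells 35.3% were higher and 35.3% lower. Partners of DNA methylation (UHRF1- and DNMT1-linked factors, KRAB zinc finger and histone methylation partners) numbered 13 tested of 14 listed. At 40 h, 4 of them were higher and 7 lower in 2i/LIF cells (median log2 fold change -0.08) and 5 higher and 7 lower in serum/LIF+2i cells (median -0.25). The medians of all genes tested were 0.01 and 0.00. Prdm14, which represses the de novo enzyme genes in naive cells, went from 93.2 ± 0.314 to 0.585 ± 0.0585 CPM in 2i/LIF cells and from 91.3 ± 0.543 to 0.371 ± 0.159 CPM in the serum/LIF+2i cells. The 40 h levels are close to that of 3 counts in a library (0.259 to 0.517 CPM). Its log2 fold changes were -7.27 ± 0.19 and -7.91 ± 0.18 (adjusted p = 6e-67 and 1.2e-72). Zfp57, which guards methylation of imprinted regions, fell by 1.16 ± 0.04 and 1.62 ± 0.04. Hells, a chromatin remodeller needed for methylation of repeats, rose by 0.84 ± 0.04 and 0.55 ± 0.04, and the histone methyltransferase gene Ehmt1 by 1.09 ± 0.06 and 0.85 ± 0.06.

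Of 7 genes listed as readers of methylated DNA, 1 was higher and 5 lower at 40 h in 2i/LIF cells (median -0.75). In serum/LIF+2i cells 2 were higher and 3 lower (median -0.33). Mbd3, a subunit of the NuRD complex, rose by 0.51 ± 0.05 and 0.73 ± 0.05. Zbtb38 fell by 1.43 ± 0.12 and 0.96 ± 0.12, and Mbd1 fell by 1.34 ± 0.13 and 0.84 ± 0.11.

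Partners and cofactor suppliers of the TET enzymes mostly fell. Of 7 tested of 8 listed, 1 was higher and 6 lower at 40 h in each medium (medians -0.93 and -0.73). Idh2, a mitochondrial enzyme that makes the TET cosubstrate 2-oxoglutarate, fell by 1.56 ± 0.05 and 1.89 ± 0.05. Hmces fell by 2.14 ± 0.09 and 1.56 ± 0.09, and Ogt, the sugar transferase that binds TET proteins, fell by 0.91 ± 0.04 and 0.86 ± 0.04. The member that rose was Qser1, which with TET1 guards regulatory regions from methylation: it went from 107.5 ± 6.16 to 346 ± 8.39 CPM in 2i/LIF cells and from 89.8 ± 2.57 to 272 ± 13.7 CPM in the serum/LIF+2i cells.

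Of 13 genes listed under base excision repair, 4 were higher and 6 lower at 40 h in 2i/LIF cells (median 0.02). In serum/LIF+2i cells 4 were higher and 7 lower (median -0.34). The paralogs Gadd45a and Gadd45b, stress-response genes linked to demethylation, moved in opposite directions. Gadd45a went from 4.398 ± 0.849 to 81.6 ± 5.53 CPM in 2i/LIF cells and from 4.92 ± 2.60 to 99.2 ± 8.77 CPM in the serum/LIF+2i cells, and Gadd45b from 37 ± 0.0997 to 2.42 ± 0.232 CPM and from 35.8 ± 2.09 to 1.14 ± 0.0289 CPM. Their log2 fold changes were 4.22 ± 0.15 and 4.33 ± 0.13 for Gadd45a, and -3.93 ± 0.19 and -4.96 ± 0.20 for Gadd45b. The glycosylase gene Smug1 fell by 1.19 ± 0.13 and 1.38 ± 0.12, and Parp1 by 0.24 ± 0.04 and 0.34 ± 0.04. Of 5 genes listed under supply of methyl groups, 2 were higher and 1 lower in 2i/LIF cells (median 0.01). In serum/LIF+2i cells 2 were higher and 2 lower (median -0.12). Mtr, methionine synthase, fell by 0.78 ± 0.06 and 0.87 ± 0.05. Mat2a, which makes the methyl donor S-adenosylmethionine, rose by 0.24 ± 0.04 and 0.38 ± 0.04, and Ahcyl1 by 0.63 ± 0.06 and 0.53 ± 0.06. Mat2b, the regulatory partner of Mat2a, had changes of 0.01 ± 0.05 (adjusted p = 0.87) and -0.25 ± 0.05 (adjusted p = 1.1e-05).

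The media were also compared over these lists at 0 h, when 14.6% of all genes tested were higher and 18.4% lower in serum/LIF+2i cells. In serum/LIF+2i, 4 of the 13 methylation partners were higher and 2 lower, with Zfp57 at 0.33 ± 0.04 above 2i/LIF. Of the readers 0 were higher and 4 of 7 lower, and of the TET partners 0 were higher and 5 of 7 lower, Hmces among them (-0.60 ± 0.08). For base excision repair 2 of 13 were higher and 0 lower, and for methyl supply 0 were higher and 1 of 5 lower, Mat2a (-0.19 ± 0.04).

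Finally, the genes whose course over the 8 groups was most like each of the 9 were ranked by the root mean square distance of centred log2 CPM, among the 10760 genes whose mean reached 5 CPM. This is a description over 8 group means and not a test. Nearest to Dnmt3l was its neighbour Icosl, at a distance of 0.709, followed by Sox1 (0.901) and Utf1 (0.924), which were further off. Nearest to Dnmt3a were Gadd45a (0.213), Calca (0.244) and Foxp1 (0.294), and nearest to Dnmt3b Fgfr2 (0.22), Ina (0.33) and the gene counted as Mir363 (0.34). Dnmt3a and Dnmt3b were 0.652 apart and Dnmt1 and Uhrf1 0.173. Tet1 was closest to Smarcad1 (0.074), Pura (0.0802) and Rnf138 (0.0857), Tet2 to Ttn (0.146), Rtkn (0.156) and Atp11a (0.178), and Tet3 to Bicdl1 (0.149), Zswim4 (0.156) and Jag2 (0.186). Closest to Tdg were Akap9 (0.0809), Zfp326 (0.0839) and Fam185a (0.0867). Closest to Dnmt1 were Fastkd3 (0.0363), D030056L22Rik (0.0389) and Zfp955a (0.0412), and to Uhrf1 Mta2 (0.063). Distances between genes of little change are small by construction, since Dnmt1 spanned only 0.517 on the log2 scale over the 8 groups and Dnmt3l 6.73.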

How the data were processed

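RNA of 16 ES cell libraries was extracted with TRIzol and prepared with a stranded mRNA kit, per the labels' protocols. The authors deposited whole-number counts per gene that are not normalized, with a gene length, per the file headers. The submitters' processing notes name fastp, STAR, featureCounts and the mm10 build, with no versions. Groups and replicate numbers come from the sample titles. The treatment protocol names 24 or 40 h for serum/LIF+2i cells, and the 12 h titles were followed. No column of values was without a library.

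Genes were kept with filterByExpr (minimum count 10, minimum total 15), which left 14288. All 16 libraries were fitted with edgeR 4.0.16 in R 4.3.3 (TMM scaling, 1 term per group, 8 residual degrees of freedom, robust quasi-likelihood F test, two-sided). P-values of the 14288 genes were adjusted by Benjamini and Hochberg's method. Standard errors derive from the F statistic. The 17 comparisons were each time against 0 h and against the time before, the media at each time, and the interaction at each later time. CPM uses TMM-scaled totals, and TPM was computed from the deposited counts and lengths. Likeness used log2 CPM with a prior count of 2. The common biological coefficient of variation was 3.19%. A count of 3 is 0.259 to 0.517 CPM. Calls were tested on simulated data. DESeq2 1.42.0 was an alternative.

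The genes, lists and tests were chosen with earlier results of these data known. Named were the 9 genes, Aire, state markers, from each list at most 4 genes called at 40 h or between the media at 0 h (smallest adjusted p), and the 3 genes most like each of the 9. A few genes that this rule names are not reported here. Icosl, Pfkl, Trpm2 and the sequence windows were chosen after the values were seen. Of the listed partners, Cxxc4 (33 counts) did not pass the filter and Dnmt3c was not matched by symbol.

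Counts shared with antisense or near-identical genes are uncertain, since the counting's strand setting is not given in the sources used here.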

Additional observations from a re-analysis of the deposited data

Results flagged for a closer look

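The change after release differed between the media, by the interaction test, in 10 cases over the 3 later times. The values below are log2 exit effects in serum/LIF+2i cells minus those in 2i/LIF cells. For Dnmt3l the values at 12, 24 and 40 h were -3.17, -3.55 and -3.42, beside group means of 7.50 CPM in 2i/LIF cells and 169 CPM in serum/LIF+2i cells at 0 h. For Dnmt3a it was 1.13 at 12 h and 0.79 at 24 h. For Dnmt3b it was -0.53, -0.47 and -0.68 at the 3 times. For Uhrf1 it was 0.17 at 12 h (adjusted p = 0.02) and -0.14 at 40 h (adjusted p = 0.036). Both Uhrf1 values lost their call under DESeq2's Wald test (adjusted p = 0.073 and 0.13), when only the groups compared were fitted (0.077 and 0.052) and when several single libraries were left out.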

How the results depend on the processing

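Depth limited Dnmt3l at 0 h in 2i/LIF cells (50 and 42 counts), Tdg (from 59) and Tet3 (from 74) most. Of 2114 recomputed log2 fold changes (9 genes, 17 comparisons), 1939 kept their direction and their side of the threshold, 132 lost a call (those under the size threshold below included), 9 gained one and 34 changed sign. Every change of sign concerned a value that was not called, and the cause was not tested. Adding Dnmt3l and Aire counts, and the fit with the replicate block, changed no call of the 9 genes; with the block all genes called at 40 h were 9835 in 2i/LIF cells and 10080 in serum/LIF+2i cells. No pairing of samples by replicate number was detected: over 28 pairs of groups, deviations of same-numbered libraries correlated at -0.0781 to 0.0416. Deviations between such similar libraries may be mostly counting noise, so this cannot exclude a shared batch.

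With a minimum absolute log2 fold change of 1, the 9 genes kept 3, 3 and 5 calls at 12, 24 and 40 h in 2i/LIF cells and 3 and 3 at 12 and 24 h in serum/LIF+2i cells. The steps kept 2 and 3 in 2i/LIF cells and 2 and 2 in serum/LIF+2i cells, the media 1, 1, 0 and 1 at the 4 times, and the interactions 2, 1 and 1; this alternative can only remove calls. All genes called were then 1755, 2965 and 4207 in 2i/LIF cells, 2128, 3418 and 4212 in serum/LIF+2i cells, 1025, 1861, 1610 and 1834 for the steps, 813, 666, 620 and 482 between media, and 232, 529 and 803 for the interactions. DESeq2's Wald test called 3097, 2638, 2688 and 1982 genes between media and 536, 1720 and 2377 for the interactions. Leaving out single libraries gave 4 to 5 of the 9 genes for 12 to 24 h in serum/LIF+2i cells, and 2257 to 3281 of all genes between media at 40 h, the lowest without the first 2i/LIF library.

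Changes of sign with library size scaling were Tet2 at 12 h in 2i/LIF cells (0.01), Tet1 at 40 h (0.01) and from 12 to 24 h (0.02) in serum/LIF+2i cells, and Tet1 between media at 40 h (0.01). Tet2 at 12 h in 2i/LIF cells was 0.01 without the filter, 0.02 with at least 5 CPM, when Tet1 from 12 to 24 h in serum/LIF+2i cells was 0.01, and 0.00 in a fit of the compared groups. Leaving out 30 ribosomal RNA genes, an alternative chosen after seeing the data, gave 0.00 for Dnmt1 and 0.03 for Tet2 at 12 h in 2i/LIF cells, 0.00 for Uhrf1 between media at 12 h and -0.01 for Tet1 in the 40 h interaction. Leaving out single libraries, ranges that crossed 0 were: at 12 h in 2i/LIF cells -0.08 to 0.02 for Dnmt1 and -0.10 to 0.09 for Tet2; at 12 h in serum/LIF+2i cells 0.00 to 0.08 for Dnmt1 and -0.14 to 0.05 for Tet2; Tet1 from 12 to 24 h in serum/LIF+2i cells -0.06 to 0.04. Between media they were -0.07 to 0.02 for Tet1 at 0 h, -0.02 to 0.03 for Uhrf1 at 12 h and 0.00 to 0.10 for Tet1 at 24 h. In the interactions they were -0.14 to 0.05 for Tet2 at 12 h, -0.05 to 0.00 for Uhrf1 at 24 h, and at 40 h -0.04 to 0.08 for Dnmt1, -0.04 to 0.05 for Tet1 and -0.07 to 0.27 for Tet2.

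Ranking likeness by Pearson's r shared 1 of the top 3 genes for Dnmt3l, Tet1 and Tdg and 0 for the other 6.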
